A study of Mus musculus with 9 samples.

Results

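The comparison of the MCAGF8 and control cranial vaults at E14.5 was examined across all genes, with the weight on changed genes that the publication, in its text or figures, does not name. The members were 6 of the 9 RNAseq libraries in the series, 3 from MCAGF8 vaults and 3 from control vaults, chosen by their labels alone. MCAGF8 embryos carried Msx2-Cre, a Cre driver active in the head ectoderm but not in the underlying skull mesenchyme, and the CAGF8 allele, in which the CAG promoter drives Fgf8b from the ROSA26 locus once Cre has removed a stop cassette. Control embryos carried no Cre. The labels call the controls wildtype, and because the CAGF8 parents were homozygous, the controls also carried a CAGF8 allele, unrecombined. The strain is labelled mixed. The skin was peeled off the skull and the vault tissue beneath it was collected, and RNA from 9 vaults per group was combined into 3 pools of 3. A value thus averages 3 vaults, and the p-values measure the spread between pools, not between embryos. Below, values are listed in the order of pools 1, 2 and 3.

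FGF8 is a secreted signal that binds FGF receptors on neighbouring cells and acts through the MAP kinase cascade, whose targets include ETS factors such as Etv4 and feedback inhibitors such as the Sprouty and Dusp genes. The cranial vault forms by intramembranous ossification: mesenchyme of neural crest and mesodermal origin condenses below the skin, and cells that express Runx2 and then Sp7 become osteoblasts that lay down and mineralize a collagen matrix. Cartilage, dermis, meninges, tendon and muscle lie next to this tissue and can enter a dissected vault.

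Expression was given as FPKM, fragments per kilobase of transcript scaled to the size of the library, a scale on which genes can be compared per length. The values of each library summed to between 858454 and 1147640 FPKM, and 16012 to 16572 genes stood at 1 FPKM or more. The number of reads was not given, so the depth behind each value is unknown. Correlations of log2(FPKM + 1) between libraries ran from 0.956 to 0.979 within the MCAGF8 group, from 0.968 to 0.972 within the control group and from 0.941 to 0.967 between the groups. Pools also differed in sex-linked transcripts: Xist, made from the inactive X chromosome, stood at 227, 57.7 and 425 FPKM in the MCAGF8 pools and 42.5, 160.3 and 52.2 FPKM in the control pools, and the Y-linked Ddx3y at 7.09, 0.0196 and 0.0619 against 29.4, 0.0596 and 2.41 FPKM. The groups overlapped for both transcripts, and neither passed the test (limma, adjusted p = 0.527 and 0.755).

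Fgf8 itself, the gene carried by the allele, stood at 19.5, 9.43 and 13.03 FPKM in the MCAGF8 pools and 13.5, 8.25 and 3.01 FPKM in the control pools. The groups overlapped, since control pool 1 lay above MCAGF8 pools 2 and 3, and the log2 difference of 0.83 ± 0.48 (SE) did not pass the test (limma, adjusted p = 0.514). The Cre was active in the ectoderm, and the skin had been peeled off before collection. Epidermal transcripts were still present, and those of a list of 50 epidermal genes summed to a mean of 922 FPKM in the MCAGF8 pools and 170 FPKM in the control pools. The part of ectodermal RNA in the Fgf8 values was not tested. Whether reads from the Fgf8b insert were counted under Fgf8 is not stated.

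Among the 18184 genes with a mean of at least 0.5 FPKM, 257 were called, that is 1.41%, at an unadjusted p below 0.05 together with a Benjamini-Hochberg adjusted p below 0.1, from limma on log2(FPKM + 1) with the 6 libraries. Each log2 difference below is on that scale, MCAGF8 minus control, with its standard error after ±, and it understates the change of genes of low FPKM. The MCAGF8 vault was higher for 121 genes (0.665%) and lower for 136 (0.748%). In each of the 257 called genes the 3 MCAGF8 pools and the 3 control pools did not overlap, as was true of 3520 tested genes (19.4%). Among the called genes, 32 are named in the text or figures of the publication and 225 are not, 104 of them higher and 121 lower in the MCAGF8 vault, and 136 of the 225 were in none of the gene lists used below. The median size of the difference was 1.45 on the log2 scale for genes called higher and 1.82 for genes called lower, against 0.201 over all tested genes, and the lowest adjusted p was 0.0135. Taken over all tested genes, the median log2 difference was -0.01 and 49.0% of genes were higher in the MCAGF8 vault. The lists leave out most of the genes that the publication names, so their counts do not cover whole pathways. Counts of called members below are to be read against the shares over all genes. When each library was rescaled to a sum of 1000000, that median moved to 0.141 and the calls to 314 higher and 150 lower.

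**Figure D1:**
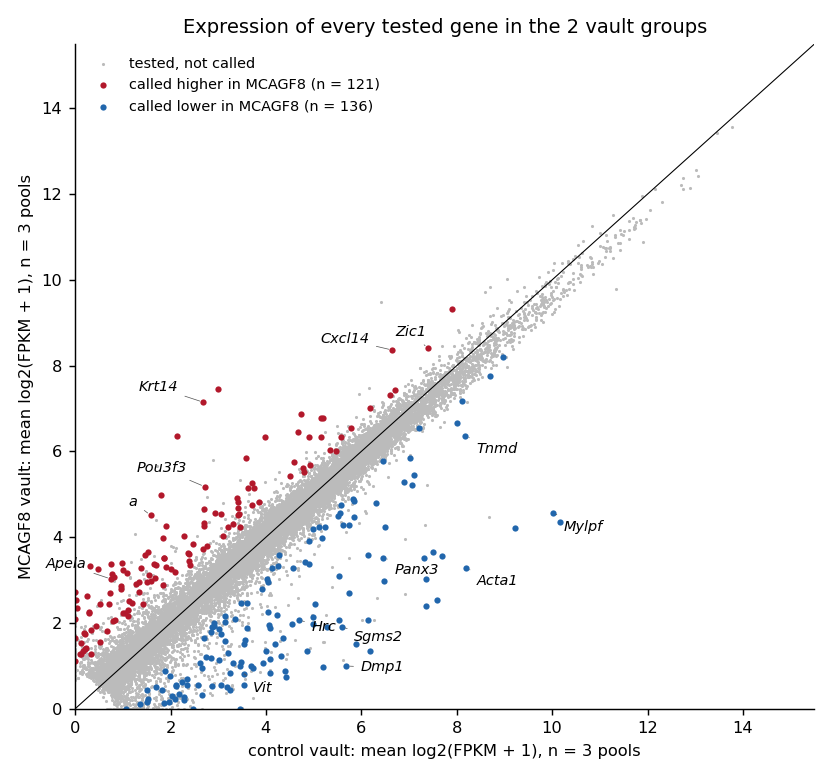
Each point is 1 of the 18184 tested genes, plotted by its mean log2(FPKM + 1) over 3 control pools (horizontal axis) and 3 MCAGF8 pools (vertical axis). Red marks the 121 genes called higher and blue the 136 called lower in the MCAGF8 vault, the line marks equal means, and the farthest points below the line include the muscle gene Mylpf and the bone gene Dmp1.

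The number of calls depended on single pools. It fell to 6 without MCAGF8 pool 1, 93 without MCAGF8 pool 3, 35 without control pool 1 and 40 without control pool 3, and it was 223 without MCAGF8 pool 2 and 384 without control pool 2. Of the 257 genes, 5, 149 and 80 were called again without MCAGF8 pools 1, 2 and 3, and 33, 194 and 36 without control pools 1, 2 and 3. No called gene changed direction in any of these 6 fits. Calls kept in every one of them were 5 in number, Apcdd1 and Apela higher and Hrc, Vit and Fabp3-ps1 lower, and another 19 were lost solely without MCAGF8 pool 1. Every other call named below was lost in at least 2 of the 6 fits, MCAGF8 pool 1 always among them. Of the 24 more stable genes, 17 are not named in the publication, 11 higher and 6 lower.

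Apela (chromosome 8), which encodes the peptide Elabela, a ligand of the apelin receptor, was among the genes whose pools varied least. It was at 7.12, 7.14 and 7.17 FPKM in the MCAGF8 pools and 0.659, 0.789 and 0.616 FPKM in the control pools, a 10.4-fold ratio of means (log2 difference 2.27 ± 0.17, adjusted p = 0.0135). Apcdd1, which the publication names, is a membrane inhibitor of Wnt signaling that is itself a Wnt target. It had the smallest p among genes called higher and stood at 92.6, 84.7 and 84.4 FPKM in the MCAGF8 pools and 23.1, 24.7 and 25.3 FPKM in the control pools (log2 difference 1.80 ± 0.11, adjusted p = 0.0135). For both genes the spread within a group was far smaller than the distance between the groups.

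Pou3f3, a POU-domain transcription factor best known from the developing nervous system and kidney, rose 6.1999-fold. It lies at chromosome 1, 42695768 to 42703176, on the + strand (GENCODE M21, GRCm38). Its values were 37.2, 37.7 and 31.01 FPKM in the MCAGF8 pools and 6.76, 4.102 and 6.24 FPKM in the control pools (log2 difference 2.46 ± 0.20, adjusted p = 0.0159). Pantr1, a long noncoding RNA on the opposite strand, 926 bases away, rose as well, at 118, 158 and 85.5 FPKM in the MCAGF8 pools and 21.96, 24.3 and 31.6 FPKM in the control pools (log2 difference 2.14 ± 0.24, adjusted p = 0.0245). Pantr1 was the more abundant of the pair in each of the 6 pools.

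Tmem132c, which encodes a single-pass membrane protein, was also among the highest and most stable differences, at 79.5, 98.5 and 64.3 FPKM in the MCAGF8 pools and 12.6, 18.1 and 13.9 FPKM in the control pools (log2 difference 2.36 ± 0.20, adjusted p = 0.0175). Irx4, an Iroquois homeobox factor, was near 0 in control pools 1 and 3 and stood at 5.997, 4.46 and 5.204 FPKM in the MCAGF8 pools and 0.0267, 0.634 and 0.0221 FPKM in the control pools (log2 difference 2.37 ± 0.25, adjusted p = 0.0216). Apela and the next 5 genes were picked after their values were seen. Masp1, a protease of the lectin pathway of complement, was at 10.6, 9.46 and 6.02 against 0.918, 1.12 and 0.974 FPKM in the MCAGF8 and control pools. Upk1b, a uroplakin, stood at 7.37, 7.15 and 7.82 against 0.373, 1.44 and 0.63995 FPKM, and Rasgrf1, an exchange factor for Ras, at 10.5, 9.69 and 15.3 against 2.46, 2.07 and 1.2997 FPKM. All 3 lay at least 2 log2 units higher in the MCAGF8 vault, with log2 differences of 2.24, 2.26 and 2.12. St8sia2 makes the polysialic acid carried by the neural cell adhesion molecule, and it was the most abundant of these 5 at 26.8, 30.9 and 30.3 against 8.79, 11.3 and 8.78 FPKM (log2 difference 1.52). Kcnip1, a potassium channel subunit, stood at 8.36, 9.55 and 9.87 against 2.66, 2.396 and 1.73 FPKM (log2 difference 1.66).

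Transcription factors that pattern the head mesenchyme included 7 genes called higher and 2 called lower among the 70 members tested, where 0.665% and 0.748% of all genes were called in each direction. At an unadjusted p below 0.05 alone, 21 of the 70 members were higher and 10 lower, larger shares than the 5.81% and 7.31% of all genes. Of the list, 40 members were higher and 30 lower, and the median log2 difference was 0.11. The Zic genes encode zinc finger factors of the dorsal neural tube, the meninges and the dorsal mesenchyme. Zic1 was abundant in both groups, at 382, 339 and 298 FPKM in the MCAGF8 pools and 138, 216 and 156 FPKM in the control pools (log2 difference 1.01 ± 0.20, adjusted p = 0.0979). Zic4 was at 126, 93.8 and 108 FPKM in the MCAGF8 pools and 31.5, 57.2 and 24.96 FPKM in the control pools (log2 difference 1.58 ± 0.29, adjusted p = 0.0864). Control pool 2 was the highest control for both genes, yet every MCAGF8 pool lay above it. Zic2 and Zic5 had log2 differences of 0.86 and 0.71 and missed the threshold (adjusted p = 0.151 and 0.165), though their groups did not overlap either. Here and below, uncalled members named beside called ones were picked after their values were seen.

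The AP-2 factors Tfap2a and Tfap2c rose. AP-2 alpha acts in the surface ectoderm and neural crest, and Tfap2a stood at 7.74, 5.28 and 5.87 FPKM in the MCAGF8 pools and 1.42, 0.528 and 0.973 FPKM in the control pools (log2 difference 1.90 ± 0.24, adjusted p = 0.0329), while Tfap2c stood at 3.63, 2.72 and 3.21 against 1.03, 0.756 and 0.611 FPKM (log2 difference 1.22 ± 0.19, adjusted p = 0.0607). Of the other Iroquois genes, Irx1 and Irx5, which the publication names and the list leaves out, were called higher (log2 difference 1.96 and 1.52). Irx6, in the list, was at 1.82, 4.12 and 1.66 against 0.188, 0.0909 and 0.183 FPKM (log2 difference 1.55 ± 0.28, adjusted p = 0.0846). Irx2 and Irx3, at log2 differences of 1.71 and 1.16, missed the threshold (adjusted p = 0.241 and 0.212). The 2 factors called lower were Foxd3, a neural crest factor, at 0.192, 0.292 and 0.604 against 1.57, 1.71 and 2.27 FPKM (log2 difference -1.07 ± 0.21, adjusted p = 0.0986), and Ebf2, a factor of mesenchymal progenitors picked after its values were seen, at 6.87, 7.98 and 5.47 against 18.4, 12.9 and 15.4 FPKM (log2 difference -1.09 ± 0.20, adjusted p = 0.0834). Without control pool 2, 11 members of this list were called, and without MCAGF8 pool 1 none were.

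Hox genes, which pattern the trunk and limbs and are mostly silent in the head, were low, and only 17 of 46 listed members reached the expression minimum. Of these, 15 were higher in the MCAGF8 vault and the median log2 difference was 0.76. The minimum is a mean over the 6 libraries, and Hoxa11, Hoxa11os, Hoxa13 and Hoxc5 reached it through their MCAGF8 values alone. The count of higher members, the calls and the median were thus partly set by the filter. Called members were these 4, or 23.5%, against 1.41% of all tested genes, and the filter bears on that share too. Hoxa13 stood at 1.93, 10.9 and 4.73 FPKM in the MCAGF8 pools and 0, 0.0256 and 0 FPKM in the control pools (log2 difference 2.54 ± 0.47, adjusted p = 0.0851). Hoxa11 was listed at 0 in all 3 control pools and at 2.01, 6.07 and 2.72 FPKM in the MCAGF8 pools. Hoxa11os, a transcript that overlaps Hoxa11 on the opposite strand, was likewise at 0 in the controls and at 2.57, 11.7 and 5.33 FPKM in the MCAGF8 pools. MCAGF8 pool 2 held the most of these 3 transcripts. Whether the counting used strand is not stated, so Hoxa11 and Hoxa11os cannot be taken as separate observations. Hoxc5 stood at 1.597, 1.36 and 1.72 against 0.0429, 0.281 and 0.0708 FPKM (log2 difference 1.18 ± 0.19, adjusted p = 0.0629). The summed FPKM of all Hox members was 53.8, 80.2 and 91.6 FPKM in the MCAGF8 pools and 14.9, 76.7 and 14.2 FPKM in the control pools, so control pool 2 lay within the range of the MCAGF8 pools. All 4 calls were lost without MCAGF8 pool 1 or 3 or without control pool 1 or 3, and without control pool 2 there were 6.

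The Wnt pathway held many calls named in the publication and left out of the list: Apcdd1, Axin2, Fzd10, Lef1, Nkd2, Prickle1, Wnt4, Wnt5a, Wnt6 and Wnt7b were called higher and Wnt2 lower. Kremen2, Nkd1, Fzd9 and Dkk1, which the publication also reports as changed, were not called under the different test and threshold used here. Of the 58 list members tested, 5 were called higher and 1 lower, that is 10.3% against 1.41% of all tested genes. Among these members 32 were higher and 26 lower, with a median log2 difference of 0.04. Among the ligands, Wnt3 was at 3.47, 3.58 and 3.99 FPKM in the MCAGF8 pools and 0.0812, 0.642 and 0.0503 FPKM in the control pools (log2 difference 1.93 ± 0.23, adjusted p = 0.0268). Wnt3a stood at 2.097, 3.17 and 1.99 against 0.0457, 0.352 and 0.05599 FPKM and Wnt7a at 2.099, 2.597 and 1.16 against 0.0197, 0.208 and 0.0643 FPKM, with log2 differences of 1.56 ± 0.22 (adjusted p = 0.0459) and 1.40 ± 0.24 (adjusted p = 0.0759). These 3 ligand genes were low or near 0 in the controls, and control pool 2 held the most of each. They passed the expression minimum through their MCAGF8 values alone, so the filter partly set the count of calls. Sostdc1, a secreted inhibitor of Wnt and BMP signals, was the most abundant of the called members at 23.8, 24.8 and 20.1 FPKM in the MCAGF8 pools and 9.34, 5.88 and 5.35 FPKM in the control pools (log2 difference 1.64 ± 0.22, adjusted p = 0.0401). The Wnt list held no call without MCAGF8 pool 1 or control pool 3 and 1 without control pool 1. The receptor gene Fzd5 fell, at 2.996, 2.51 and 2.68 against 6.601, 5.67 and 6.57 FPKM (log2 difference -0.96 ± 0.17, adjusted p = 0.0756).

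Sp5 is a zinc finger factor and a direct target of beta-catenin with TCF and LEF factors in many tissues, and it rose 7.004-fold, at 4.02, 6.37 and 3.44 FPKM in the MCAGF8 pools and 0.769, 0.395 and 0.812 FPKM in the control pools (log2 difference 1.73 ± 0.25, adjusted p = 0.0459). Its upstream sequence is shown because it holds the TCF/LEF core letters CTTTGAT, searched on both strands of the 250 bases before each start. Of the 11613 tested genes with such a window, 2.20% held the letters. The 150 bases before the Sp5 start (RefSeq, GRCm38.p6, chr2:70474773-70474922, + strand) read as follows, with the match in capitals 104 bases before the start.
Sp5: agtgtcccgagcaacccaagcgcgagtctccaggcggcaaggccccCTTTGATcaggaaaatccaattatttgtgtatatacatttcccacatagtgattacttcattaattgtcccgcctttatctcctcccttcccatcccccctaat
Among the 83 genes with a window in each direction, 3 called higher and 5 called lower held these letters, which says nothing of whether a factor binds there.

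Among FGF ligands, receptors and feedback genes, 42 members were tested and Etv4 was called (2.38%, against 1.41% of all genes). Dusp6, a feedback phosphatase that the publication names and the list leaves out, was also called higher (log2 difference 0.77). Spry4 and Htra1, which the publication reports as upregulated, were not called under the different test and threshold used here. Etv4, an ETS factor, stood at 16.4, 20.2 and 17.2 FPKM in the MCAGF8 pools and 10.4, 8.33 and 6.43 FPKM in the control pools (log2 difference 1.03 ± 0.20, adjusted p = 0.0915). Its call was lost in each of the 6 fits that left out a pool. Of the members, 25 were higher and 17 lower with a median log2 difference of 0.09, and the Sprouty genes Spry1 and Spry2 had log2 differences of 0.28 and 0.36 (adjusted p = 0.572 and 0.565). Other signaling genes named by their lists were Ltbp2, a latent TGF-beta binding protein, at 39.8, 31.9 and 41.4 against 16.8, 10.02 and 10.4 FPKM (log2 difference 1.56 ± 0.22, adjusted p = 0.0445), and Boc, a Hedgehog co-receptor, at 76.1, 94.7 and 70.3 against 47.5, 44.7 and 46.8 FPKM (log2 difference 0.77 ± 0.14, adjusted p = 0.0858). Both were higher in all MCAGF8 pools. The BMP and TGF-beta list had 1 call among 57 tested members (1.75%), near the 1.41% of all genes. Of 22 tested Hedgehog members 9.09% were called, namely Boc and Ihh, a Hedgehog ligand that the publication names, which was called lower.

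Genes of the epidermis formed the list with the most calls among genes that were higher. Of 50 tested members, 43 were higher in the MCAGF8 vault, 14 were called, all higher, and the median log2 difference was 1.11. Of the 14, Wnt7b alone is named in the publication. The basal keratins Krt5 and Krt14, which form the filaments of proliferating keratinocytes, stood at 149, 139 and 252 FPKM in the MCAGF8 pools and 5.27, 29.2 and 1.63 FPKM in the control pools for Krt5 and at 132, 123 and 172 against 5.401, 22.1 and 0.798 FPKM for Krt14. Their log2 differences, 4.46 ± 0.80 (adjusted p = 0.0809) and 4.46 ± 0.81 (adjusted p = 0.0834), were the highest of all calls. Control pool 2 held the most of both keratins among the controls and MCAGF8 pool 3 the most overall. Krt15, a further basal keratin, followed at 72.2, 64.4 and 112 against 2.23, 13.9 and 0.733 FPKM (log2 difference 4.22 ± 0.72, adjusted p = 0.0721).

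Further epidermal members called higher were Sfn, or 14-3-3 sigma, at 22.7, 28.03 and 44.8 against 2.32, 5.54 and 0.981 FPKM (log2 difference 3.17 ± 0.45, adjusted p = 0.0445), and Gabrp, a GABA receptor subunit, at 12.9, 9.103 and 6.28 against 0.05702, 0.786 and 0 FPKM (log2 difference 3.03 ± 0.33, adjusted p = 0.0227). Trp63, the p63 factor that maintains stratified epithelia, was at 7.96, 4.98 and 12.4 against 0.985, 1.94 and 0.6196 FPKM and the desmosomal plakophilins Pkp1 and Pkp3 at 7.88, 5.34 and 18.6 against 0.9398, 1.26 and 0.0856 FPKM and 16.1, 11.7 and 32.2 against 2.498, 5.35 and 1.39 FPKM. Trp63, picked after its values were seen, and both plakophilins were called, with adjusted p of 0.0709, 0.0767 and 0.0933. Col17a1, a hemidesmosome collagen, stood at 9.12, 9.35 and 15.8 against 1.26, 2.92 and 1.33 FPKM (log2 difference 2.14 ± 0.30, adjusted p = 0.045). The list did not move as 1 block: the simple epithelial keratins Krt8 and Krt18 had log2 differences of -1.14 and -1.46 (adjusted p = 0.307 and 0.343). Krt1 and Krt10, keratins of differentiated layers, were high in MCAGF8 pool 3 alone. Krt1 stood at 9.98, 5.39 and 136 FPKM in the MCAGF8 pools and 1.28, 5.87 and 1.21 FPKM in the control pools and Krt10 at 9.56, 6.68 and 176 against 3.21, 10.7 and 4.34 FPKM (adjusted p = 0.364 and 0.525).

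The summed FPKM of the epidermal list was 649, 610.1 and 1508 FPKM in the MCAGF8 pools and 173, 197 and 139 FPKM in the control pools. The sum in MCAGF8 pool 3 was more than 2 times that of either other MCAGF8 pool, and no control pool reached 200 FPKM. Of the 121 genes called higher, 37 had their highest MCAGF8 value in pool 3 and 49 their lowest. Rasgrf1, Upk1b, Wnt3, Dct and Pmel, beside most of the epidermal genes above, were among the former, and Pou3f3, Pantr1, Tmem132c, Cxcl14 and the agouti gene a among the latter. In a bulk sample, more or fewer cells of a type and more or less RNA per cell cannot be told apart, and the part of epidermal cells in these differences was not tested. Without MCAGF8 pool 1 or control pool 1 no epidermal member was called. There were 3 calls without MCAGF8 pool 3, 2 without control pool 3 and 18 without control pool 2.

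Genes of pigmentation rose. The agouti gene a, whose product is secreted by skin mesenchyme and antagonizes melanocortin signaling in melanocytes, was at 20.3, 31.9 and 16.02 FPKM in the MCAGF8 pools and 1.33, 2.16 and 2.65 FPKM in the control pools (log2 difference 2.93 ± 0.29, adjusted p = 0.0207), an 11.1-fold ratio. Dct, an enzyme of melanin synthesis, stood at 8.91, 7.25 and 9.56 FPKM in the MCAGF8 pools and 0.0568, 1.17 and 0.162 FPKM in the control pools (log2 difference 2.78 ± 0.30, adjusted p = 0.0231). Pmel, the fibril protein of melanosomes, stood at 5.84, 6.16 and 7.52 against 1.39, 1.76 and 1.15 FPKM (log2 difference 1.63 ± 0.19, adjusted p = 0.0262). Mlana was listed at 0 in all control pools and stood at 2.41, 2.67 and 1.52 FPKM in the MCAGF8 pools, and Slc24a5, a melanosomal ion exchanger, was at 1.82, 2.16 and 1.83 against 0.533, 0.617 and 0.192 FPKM (log2 difference 1.03 ± 0.20, adjusted p = 0.0978). Of 11 tested melanocyte markers, 9 were higher, 4 were called and the median log2 difference was 0.91, which became -0.06 among members with a mean of at least 5 FPKM. Mlana, Dct and Slc24a5 had control means under 0.5 FPKM and passed the expression minimum through their MCAGF8 values alone. The calls, the count of higher members and the median were thus partly set by the filter. The 2 members that were lower, Sox10 and Ednrb, are shared with glia and other neural crest cells, and had log2 differences of -0.96 and -0.55 (adjusted p = 0.299 and 0.234). The summed FPKM of the list was 49.6, 46.7 and 55.1 FPKM in the MCAGF8 pools and 38.7, 34.02 and 29.5 FPKM in the control pools. The part of melanocyte number in these values was not tested. No marker was called without MCAGF8 pool 1, 1 without control pool 1 or control pool 3, and 3 without any other pool.

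Among the most abundant genes called higher, Cxcl14, a chemokine made by many epithelial and mesenchymal cells, was second to Zic1 among those absent from the publication and stood at 328, 436 and 248 FPKM in the MCAGF8 pools and 94.1, 96.3 and 108 FPKM in the control pools (log2 difference 1.71 ± 0.21, adjusted p = 0.0304). Its controls were tightly grouped. Sertad4 stood at 182, 181 and 151 against 99.2, 99.4 and 110.0 FPKM, Agrn, the basement membrane proteoglycan agrin, at 151, 159.7 and 167 against 113, 87.8 and 90.7 FPKM, and the adhesion molecule Vcam1 at 122, 142 and 119 against 60.8, 82.4 and 74.8 FPKM. Their log2 differences were 0.73 ± 0.13 (adjusted p = 0.083) for Sertad4, 0.72 ± 0.14 (adjusted p = 0.0963) for Agrn and 0.81 ± 0.15 (adjusted p = 0.0888) for Vcam1. These 3 differences were below 1 on the log2 scale. Ppp1r3b, a glycogen-targeting subunit of protein phosphatase 1, was at 90.8, 103 and 86.2 against 52.7, 57.1 and 52.6 FPKM (log2 difference 0.77 ± 0.12, adjusted p = 0.0607), and Slc2a3, the glucose transporter GLUT3, at 26.9, 31.3 and 24.3 against 9.83, 13.2 and 6.96 FPKM (log2 difference 1.41 ± 0.23, adjusted p = 0.0658). Guidance genes included 2 called higher of 62 tested, the receptor gene Plxna4 (log2 difference 1.06 ± 0.17, adjusted p = 0.0593) and the ephrin gene Efna5 (log2 difference 0.69 ± 0.13, adjusted p = 0.0846), and 1 called lower, Sema3b (log2 difference -1.39 ± 0.23, adjusted p = 0.0688). Edn1, endothelin 1, stood at 4.54, 5.31 and 3.67 against 1.72, 1.69 and 1.69 FPKM (log2 difference 1.02 ± 0.19, adjusted p = 0.0846), Prdm1, a repressor active in dermal papilla precursors, at 3.12, 3.17 and 4.34 against 1.35, 1.23 and 0.914 FPKM (log2 difference 1.07 ± 0.20, adjusted p = 0.0869), and Col4a6, a basement membrane collagen, at 4.23, 5.36 and 4.03 against 1.26, 1.71 and 0.978 FPKM (log2 difference 1.26 ± 0.21, adjusted p = 0.0648). Zpld1, at 12.3, 9.88 and 6.94 against 0.294, 2.43 and 0.7603 FPKM, was among the 15 highest differences (log2 difference 2.40 ± 0.38, adjusted p = 0.0612).

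Another 4 genes called higher were picked after their values were seen. Emilin3, an extracellular matrix glycoprotein, stood at 78.8, 91.8 and 69.05 against 35.1, 30.4 and 39.6 FPKM (log2 difference 1.16 ± 0.16, adjusted p = 0.043). Slpi, a secreted protease inhibitor, was at 28.8, 41.02 and 34.3 against 13.8, 11.5 and 12.3 FPKM (log2 difference 1.39 ± 0.17, adjusted p = 0.0268). Diras2, a small GTPase, stood at 20.4, 24.7 and 22.03 against 6.46, 8.72 and 6.96 FPKM, and Usp3, a ubiquitin protease, at 64.2, 63.3 and 62.6 against 43.5, 42.1 and 43.95 FPKM. Usp3 had the smallest difference of any gene called higher, 0.54 ± 0.11 (adjusted p = 0.0979), with pools that differed within each group by less than 2 FPKM.

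**Figure D2:**
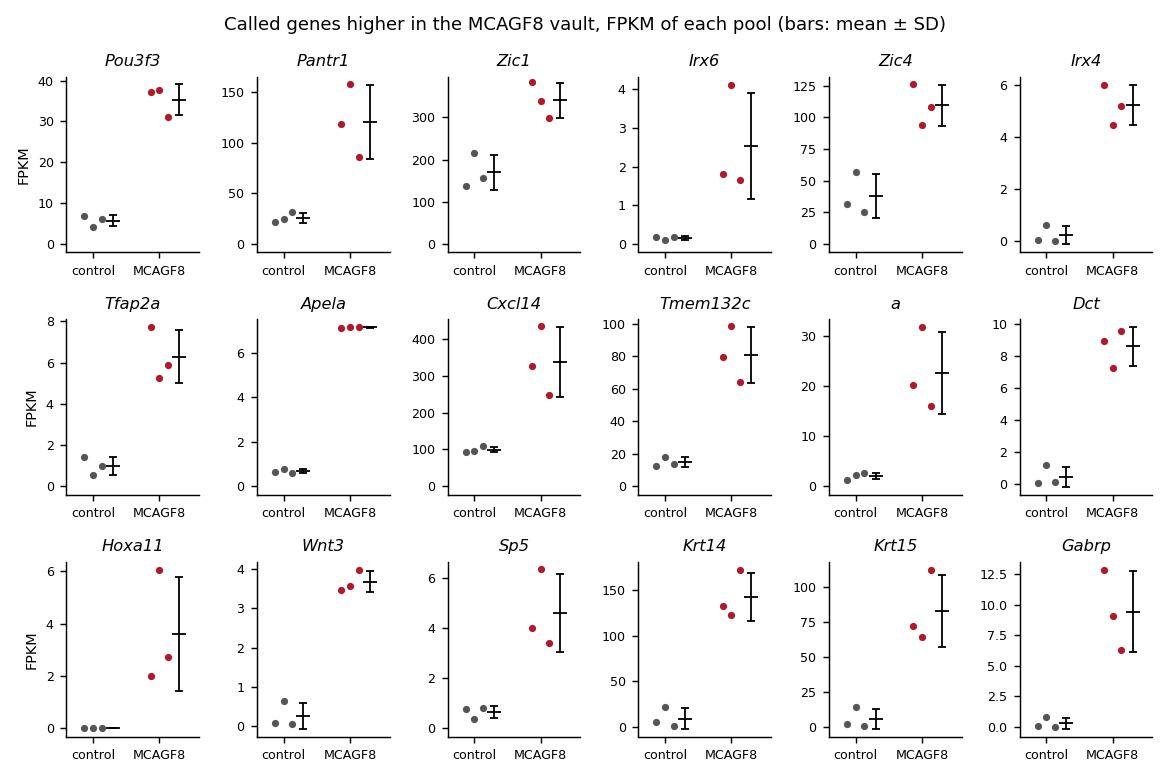
FPKM of 18 called genes in each of the 3 control pools (grey) and 3 MCAGF8 pools (red), with the mean ± SD (n = 3) beside each group and a linear vertical axis per gene. The groups do not overlap in any panel, and Apela differs least among its MCAGF8 pools.

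Among genes that were lower, the bone matrix and mineralization list showed 12 calls of 35 tested members, none of those called named in the publication, with 30 members lower, 5 higher and a median log2 difference of -1.11. Spp1, Ibsp, Ifitm5 and Phospho1, which the publication names, were called lower and left out of the list. Sparc, Itm2a, Cthrc1 and Col24a1, which the publication reports as decreased, were not called under the different test and threshold used here. Dmp1, a phosphoprotein of mineralizing matrix and osteocytes, stood at 0.159, 4.29 and 0.296 FPKM in the MCAGF8 pools and 75.6, 22.4 and 74.8 FPKM in the control pools (log2 difference -4.69 ± 0.69, adjusted p = 0.0478), a 36.4-fold ratio of control to MCAGF8 means. Panx3, a channel protein of differentiating osteoblasts, was at 9.58, 9.96 and 12.1 FPKM in the MCAGF8 pools and 103, 51.9 and 124 FPKM in the control pools (log2 difference -2.94 ± 0.31, adjusted p = 0.0216). Both genes were lowest among the controls in pool 2. Bglap2, an osteocalcin gene, was listed at 0 in all MCAGF8 pools and at 19.3, 2.71 and 16.5 FPKM in the controls, and because osteocalcin genes are nearly identical, reads may have been split between them. Slc13a5, a citrate transporter, stood at 2.98, 3.98 and 2.06 against 29.7, 12.04 and 31.03 FPKM (log2 difference -2.57 ± 0.38, adjusted p = 0.0473). Cgref1 stood at 10.7, 12.5 and 9.85 against 83.03, 43.2 and 93.4 FPKM (log2 difference -2.56 ± 0.29, adjusted p = 0.0235). Car3, carbonic anhydrase 3, is also abundant in muscle and fat, and it was the 1 called member of the list that was highest in control pool 2, at 5.74, 7.47 and 3.76 against 27.4, 108 and 48.7 FPKM (log2 difference -3.05 ± 0.47, adjusted p = 0.0584).

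Further called members of the bone list were less abundant, and those other than Omd were picked after their values were seen, as was Cgref1. Phex, the endopeptidase whose loss causes hypophosphatemia, was at 1.75, 1.95 and 2.46 against 18.03, 5.55 and 12.3 FPKM (log2 difference -1.96 ± 0.38, adjusted p = 0.0926), and Omd, the proteoglycan osteomodulin, at 1.01, 0.831 and 1.46 against 11.8, 4.85 and 12.1 FPKM (log2 difference -2.25 ± 0.34, adjusted p = 0.0536). Ramp1, a subunit of the receptor for calcitonin gene-related peptide, stood at 0.887, 1.91 and 1.78 against 8.44, 6.16 and 10.8 FPKM (log2 difference -1.90 ± 0.27, adjusted p = 0.0445). Ostn, the peptide osteocrin, was at 1.04, 0.645 and 0.238 against 4.16, 2.64 and 5.99 FPKM (log2 difference -1.66 ± 0.31, adjusted p = 0.0849) and Mepe, a mineral-binding phosphoglycoprotein, at 0.0344, 0.228 and 0 against 1.77, 0.934 and 2.21 FPKM (log2 difference -1.25 ± 0.25, adjusted p = 0.0979). Tmem119, a membrane protein of osteoblasts, was not a list member but was among the 10 most abundant genes called lower, at 97.7, 128 and 82.6 FPKM in the MCAGF8 pools and 262, 192 and 333 FPKM in the control pools (log2 difference -1.33 ± 0.24, adjusted p = 0.0846). All of these lay lower in each MCAGF8 pool than in any control pool, including control pool 2.

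Sgms2, which makes sphingomyelin at the plasma membrane, fell from 59.2, 27.5 and 64.0 FPKM in the control pools to 2.47, 3.19 and 2.63 FPKM in the MCAGF8 pools (log2 difference -3.68 ± 0.32, adjusted p = 0.0175), and its call was lost solely without MCAGF8 pool 1. The bone list member Smpd3, neutral sphingomyelinase 2, which cleaves sphingomyelin and is needed for normal mineralization, stood at 2.22, 5.82 and 2.34 FPKM in the MCAGF8 pools and 51.9, 26.4 and 69.04 FPKM in the control pools (log2 difference -3.48 ± 0.42, adjusted p = 0.0268). Enpp6, picked after its values were seen, a phosphodiesterase that releases phosphocholine, was low throughout at 0, 0.414 and 0.151 against 2.51, 1.18 and 2.13 FPKM (log2 difference -1.29 ± 0.26, adjusted p = 0.0986).

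Several of the best known bone genes were not called. Col1a1, the main bone collagen, was at 2523, 2666 and 2102 FPKM in the MCAGF8 pools and 3676, 2664 and 3912 FPKM in the control pools (log2 difference -0.48 ± 0.26, adjusted p = 0.495), with MCAGF8 pool 2 above control pool 2. Alpl, tissue-nonspecific alkaline phosphatase, stood at 57.8, 89.4 and 40.3 against 149, 72.4 and 198 FPKM (log2 difference -1.11 ± 0.42, adjusted p = 0.33), and here too the groups overlapped. Among the transcription factors that drive osteoblasts, Sp7 and Mef2c, named in the publication and not in the list, were called lower. The transcription factors and receptors in the list had no call among 36 tested members by limma. At an unadjusted p below 0.05 there were 11 of the 36, 4 higher and 7 lower, a larger share than the 13.1% of all genes. The per-gene linear model without moderation called none of them either, but it called 5 genes in all and so says little of a list. Runx2 stood at 44.9, 45.9 and 42.02 against 58.98, 44.8 and 56.6 FPKM (log2 difference -0.26 ± 0.14, adjusted p = 0.496), and the members with the smallest p, Bambi and Dlx3, had log2 differences of -0.95 ± 0.19 (adjusted p = 0.105) for Bambi and -1.70 ± 0.37 (adjusted p = 0.116) for Dlx3. Without control pool 2, in which many bone genes were lowest, 17 members of the bone matrix list were called. There were 8 without MCAGF8 pool 2, 3 without MCAGF8 pool 3, 2 without control pool 3, 1 without control pool 1 and 0 without MCAGF8 pool 1.

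The upstream sequences of Mepe and Sgms2 are shown because they hold TGTGGT or its reverse complement, the core letters bound by RUNX factors, within the 150 bases before the start. Among the 11613 tested genes with a window, 10.4% held these letters on either strand within 250 bases, as did 1 of the 7 called bone list members that had a window. Capitals mark the matches, at 118 and 80 bases before the start for Mepe (RefSeq, GRCm38.p6, chr5:104325179-104325328, + strand) and at 120 bases for Sgms2 (chr3:131491444-131491593, - strand, the first listed of several starts).
Mepe: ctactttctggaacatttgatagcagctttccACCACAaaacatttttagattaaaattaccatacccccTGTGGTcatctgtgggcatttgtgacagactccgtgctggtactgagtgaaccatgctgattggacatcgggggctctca
Sgms2: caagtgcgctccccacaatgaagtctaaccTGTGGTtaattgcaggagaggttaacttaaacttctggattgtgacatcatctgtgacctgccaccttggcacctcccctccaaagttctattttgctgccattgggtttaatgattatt
A match is a run of letters and not a known binding site, and the share among called bone genes was not tested.

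Some tendon and matrix genes fell as well. Tnmd, or tenomodulin, a membrane protein of tendon cells, was at 68.5, 77.8 and 99.04 FPKM in the MCAGF8 pools and 226, 367 and 293 FPKM in the control pools (log2 difference -1.83 ± 0.22, adjusted p = 0.0268). Thbs4, a thrombospondin of tendon and muscle attachments, stood at 3.34, 4.58 and 2.87 FPKM in the MCAGF8 pools and 20.9, 18.8 and 14.2 FPKM in the control pools (log2 difference -2.05 ± 0.22, adjusted p = 0.0217). These were the 2 called members of 13 tendon genes tested, and the tendon factor Scx had a log2 difference of -0.56 (adjusted p = 0.527). Vit, an extracellular matrix protein named vitrin, kept its call without any 1 pool, at 0.9301, 0.872 and 0.509 FPKM in the MCAGF8 pools and 12.2, 8.56 and 11.6 FPKM in the control pools, and was 14.01-fold higher in the controls by the ratio of means (log2 difference -2.73 ± 0.21, adjusted p = 0.0135). Mfap5, a microfibril component, stood at 5.89, 5.796 and 12.6 against 39.5, 51.3 and 45.8 FPKM (log2 difference -2.43 ± 0.28, adjusted p = 0.026). Of 62 proteoglycans and matricellular proteins tested, Vit, Mfap5, Omd and Thbs4 were called lower and none higher, while the median was 0.05. Npnt, nephronectin, was the 1 basement membrane gene called lower, at 18.9, 23.2 and 14.4 against 59.5, 35.8 and 68.4 FPKM (log2 difference -1.46 ± 0.27, adjusted p = 0.087), whereas 26 of 30 members of that list were higher. Timp1 and Col22a1, named in the publication, were called lower as well.

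Some genes that process secreted collagen fell. Of 71 secretory pathway genes tested, 4 were called, all lower, as was Fkbp11, which the publication names, and 59 members were lower with a median log2 difference of -0.28. Pcolce and Pcolce2 encode enhancers of procollagen C-proteinase. Pcolce was abundant, at 293, 296 and 289.8 FPKM in the MCAGF8 pools and 517, 460.4 and 531 FPKM in the control pools (log2 difference -0.77 ± 0.13, adjusted p = 0.0735), and Pcolce2 was at 1.81, 3.06 and 2.34 against 8.01, 5.18 and 9.34 FPKM (log2 difference -1.31 ± 0.25, adjusted p = 0.0963). Fkbp7, a prolyl isomerase of the endoplasmic reticulum, stood at 136, 160.0 and 136 against 251, 255 and 326 FPKM (log2 difference -0.94 ± 0.15, adjusted p = 0.0658), and Loxl4, a lysyl oxidase that cross-links collagen, at 0.968, 2.93 and 2.01 against 12.5, 7.301 and 13.04 FPKM (log2 difference -2.02 ± 0.32, adjusted p = 0.0607). The 3 MCAGF8 values of Pcolce lay within 8 FPKM of each other.

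Skeletal muscle genes made up the list with the most calls. Of 65 tested members, 63 were lower in the MCAGF8 vault, 16 were called, all lower, and the median log2 difference was -2.36. Mylpf, the regulatory light chain of fast muscle, stood at 9.82, 14.9 and 76.8 FPKM in the MCAGF8 pools and 446, 2851 and 862 FPKM in the control pools (log2 difference -5.44 ± 0.88, adjusted p = 0.0629). Acta1, skeletal muscle actin, was at 2.24, 7.93 and 30.3 FPKM in the MCAGF8 pools and 129.9, 848 and 227 FPKM in the control pools (log2 difference -4.92 ± 0.93, adjusted p = 0.0888), and the fast troponin C gene Tnnc2 at 1.74, 3.67 and 14.2 against 75.8, 681 and 134 FPKM (log2 difference -5.05 ± 0.90, adjusted p = 0.0772). Control pool 2 exceeded the other two controls several-fold for each of these genes, and among the MCAGF8 pools the highest value was in pool 3. Similar values were found for Myl1 (log2 difference -4.98 ± 0.87, adjusted p = 0.0764), Tnnc1 (log2 difference -4.35 ± 0.77, adjusted p = 0.0767) and Myl4 (log2 difference -4.12 ± 0.71, adjusted p = 0.0735). Outside the list, Sln, which inhibits the calcium pump of the sarcoplasmic reticulum, stood at 0.325, 1.26 and 4.64 against 34.8, 180.0 and 58.5 FPKM (log2 difference -4.83 ± 0.70, adjusted p = 0.0463). Csrp3, Myoz2, Tnni2 and Tnnt3, genes of the sarcomere, had log2 differences from -4.23 to -3.50, and Tceal7 and Il17b had -4.37 and -3.52. Without control pool 2, 22 list members were called, without MCAGF8 pool 3 15, without MCAGF8 pool 2 only 1, and without MCAGF8 pool 1 or control pool 1 or 3 none.

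Hrc, a calcium-binding protein of the sarcoplasmic reticulum, had the smallest p of the genes called lower and, unlike Mylpf and Acta1, varied little between the control pools. It stood at 2.54, 4.26 and 2.98 FPKM in the MCAGF8 pools and 21.7, 26.4 and 26.8 FPKM in the control pools (log2 difference -2.62 ± 0.20, adjusted p = 0.0135), so the 3 controls lay within 6 FPKM of each other. Mlip, which encodes a muscle lamin-interacting protein, was at 1.22, 1.02 and 1.502 against 15.8, 10.6 and 23.6 FPKM (log2 difference -2.92 ± 0.29, adjusted p = 0.0207) and was lowest among the controls in pool 2. Fabp3-ps1, annotated as a copy of the fatty acid binding protein gene Fabp3, stood at 2.14, 4.51 and 3.98 against 23.5, 35.5 and 35.1 FPKM (log2 difference -2.85 ± 0.27, adjusted p = 0.0207), and Fabp3 itself at 0.246, 0.543 and 0.281 against 2.35, 2.32 and 2.94 FPKM (log2 difference -1.38 ± 0.19, adjusted p = 0.0445). The 2 share sequence, so reads may have been split between them. Ly6a, the surface protein Sca-1, was lower in all MCAGF8 pools at 4.17, 3.11 and 6.55 against 33.7, 26.6 and 35.8 FPKM (log2 difference -2.59 ± 0.25, adjusted p = 0.0207). Mlip, Fabp3-ps1, Fabp3 and Ly6a were picked after their values were seen. The summed FPKM of the muscle list was 266, 388 and 666 FPKM in the MCAGF8 pools and 1994, 10750.0 and 3102 FPKM in the control pools. How much of any decrease went with less muscle in the tissue was not tested.

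The upstream sequences of Mylpf and Hrc are shown for the E-box CAGCTG, letters bound by MyoD and related muscle factors. The letters were found in 8 of the 12 called muscle list members that had a window and in 12.1% of the 11613 tested genes with one, and also in 5 of 8 called epidermal members. Capitals mark the match, 51 bases before the start of Mylpf (RefSeq, GRCm38.p6, chr7:127211458-127211607, + strand) and 22 bases before that of Hrc (chr7:45335119-45335268, + strand).
Mylpf: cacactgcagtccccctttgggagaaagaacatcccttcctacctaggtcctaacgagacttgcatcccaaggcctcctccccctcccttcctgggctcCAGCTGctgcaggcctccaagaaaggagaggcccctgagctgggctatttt
Hrc: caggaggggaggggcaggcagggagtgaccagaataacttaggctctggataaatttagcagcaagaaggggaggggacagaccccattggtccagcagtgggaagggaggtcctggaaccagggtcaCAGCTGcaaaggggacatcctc
The letters read the same on both strands. These shares describe the letters in these windows and were not tested.

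Several fallen genes belong to other pathways. In the retinoic acid list, 2 of 18 tested members were called. Aldh1a3, an enzyme that makes retinoic acid, stood at 1.78, 4.17 and 3.04 FPKM in the MCAGF8 pools and 16.9, 12.5 and 18.6 FPKM in the control pools (log2 difference -2.12 ± 0.27, adjusted p = 0.0329), and the receptor gene Rxrg at 0.882, 0.861 and 1.02 against 4.503, 7.05 and 4.605 FPKM (log2 difference -1.71 ± 0.21, adjusted p = 0.0304). Cdkn1a, the cell cycle inhibitor p21, was at 17.5, 24.6 and 22.4 FPKM in the MCAGF8 pools and 42.7, 74.8 and 55.6 FPKM in the control pools (log2 difference -1.36 ± 0.23, adjusted p = 0.0688). It was the 1 cell cycle member called of 46 (2.17%, against 1.41% of all genes). Of these 46 members, 40 were lower, and 16 were lower at an unadjusted p below 0.05, a larger share than the 7.31% of all genes. Dcx, a microtubule protein of young neurons, stood at 0.483, 0.338 and 0.546 against 9.66, 8.27 and 3.03 FPKM (log2 difference -2.34 ± 0.37, adjusted p = 0.0599) and was the 1 brain marker called of 28 tested. Among abundant genes, Crip1, a LIM domain protein, stood at 185, 257 and 213 against 402, 375 and 473 FPKM (log2 difference -0.94 ± 0.17, adjusted p = 0.0857) and Rnase4 at 95.7, 89.5 and 93.03 against 129, 159 and 152 FPKM (log2 difference -0.65 ± 0.13, adjusted p = 0.0978). Nupr1, a stress-induced chromatin protein, and Rarres2, the chemoattractant chemerin, were picked after their values were seen. Nupr1 was at 25.7, 29.6 and 25.9 against 77.1, 63.4 and 95.99 FPKM (log2 difference -1.49 ± 0.17, adjusted p = 0.0254) and Rarres2 at 17.95, 17.8 and 19.4 against 34.9, 57.3 and 55.1 FPKM (log2 difference -1.34 ± 0.20, adjusted p = 0.0549).

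**Figure D3:**
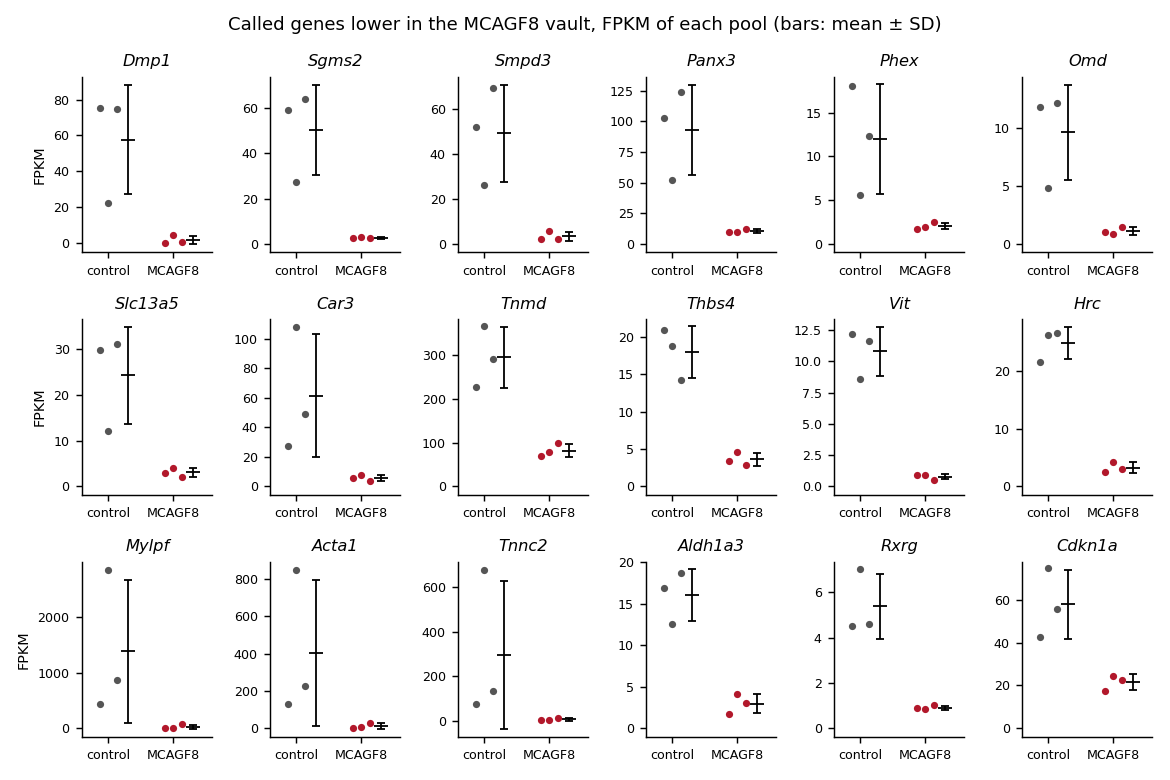
FPKM of 18 called genes in each of the 3 control pools (grey) and 3 MCAGF8 pools (red), with the mean ± SD (n = 3) beside each group and a linear vertical axis per gene. Control pool 2, the middle grey point, is lowest for Dmp1, Sgms2 and Panx3 and highest for Mylpf, Acta1 and Tnnc2.

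Of the 42 lists, 26 held a called member and 16 held none, and the medians of those 16 ran from -0.944 to 0.33. Sox9, the main chondrocyte factor, and Matn4, a matrilin of cartilage matrix, are named in the publication, were left out of the lists and were called higher. Col2a1 and Col9a3, which the publication reports as strongly increased, were not called under the different test and threshold used here. Cartilage matrix genes in the list were higher for 29 of 36 members with a median of 0.33. By limma 0 were called, with 5 of the 36 at an unadjusted p below 0.05, a share near the 13.1% of all genes. The per-gene linear model without moderation called none of them either, but it called 5 genes in all and so says little of a list. Acan, the cartilage proteoglycan aggrecan, stood at 55.7, 87.4 and 131 against 35.2, 42.8 and 32.8 FPKM (log2 difference 1.21 ± 0.29, adjusted p = 0.154), and Col9a2 at 304, 554 and 498 against 243, 308 and 249 FPKM (log2 difference 0.72 ± 0.25, adjusted p = 0.292). Chondrocyte regulators in the list, also without a call, had a median of 0.28, with Wwp2 at 88.7, 107 and 142 against 62.2, 63.97 and 49.96 FPKM (log2 difference 0.91 ± 0.20, adjusted p = 0.118) and Sox5 at 20.6, 19.7 and 33.96 against 15.9, 13.1 and 10.5 FPKM (log2 difference 0.83 ± 0.25, adjusted p = 0.221). MCAGF8 pool 3 was the highest for Acan, Wwp2 and Sox5. Endothelial genes were higher for 25 of 30 members with a median of 0.28, and Vwf, which encodes von Willebrand factor, lay at the threshold and was not called (adjusted p = 0.1), with 29.1, 29.98 and 22.9 against 14.4, 11.3 and 16.3 FPKM.

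Genes of the respiratory chain were lower for 70 of 73 members, with a median of -0.45 and 28 at an unadjusted p below 0.05, and ribosomal protein genes for 75 of 78, with a median of -0.38 and 8 at that level. Over all tested genes 7.31% were lower at that level, and the ribosomal count lay near this share. Neither list held a call by limma, nor by the per-gene linear model, which called 5 genes in all and so says little of a list. Both medians stayed negative in every alternative, from -0.61 to -0.274 and from -0.523 to -0.155. Values of the 2 members with the smallest p were 94.9, 91.4 and 99.4 against 132, 144 and 151 FPKM for Uqcrb and 234, 412 and 266 against 443, 545 and 602 FPKM for Uqcr11. Called genes also had other lengths than the rest. The median transcript of genes called higher was 3487 bases and of genes called lower 2288 bases, against 2842 over all tested genes.

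The remaining lists without a call are given by members with the smallest p. The cadherins Pcdh18 and Dchs1 had log2 differences of 0.75 and 0.53, Notch2 and Hes6 of the Notch pathway 0.58 and -0.92, and Igfbp6 and Htra3 of the IGF pathway -1.04 and -0.62. Among marker lists, macrophage genes had a median of -0.09, which turned positive when libraries were rescaled to a common sum, and osteoclast genes -0.21, with log2 differences of -0.55 for Pf4, -0.40 for F13a1, -0.67 for Ctsk and -0.59 for Cst3. The adult alpha-globin gene Hba-a2 varied widely, at 644, 1269 and 447 against 239.8, 148 and 16.5 FPKM, with every MCAGF8 pool above every control, and was not called (adjusted p = 0.232). Its near-identical copies make the value uncertain. Erg of the endothelium, Pdgfrb and Des of the smooth muscle list, Asb4 and Snrpn among imprinted genes, Ebp of cholesterol synthesis, and Rps24 and Rpl28 among ribosomal genes had log2 differences of 0.47, 0.59, -2.78, -0.39, -0.48, -0.44, -0.78 and -2.15 in that order, none of them called.

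**Figure D4:**
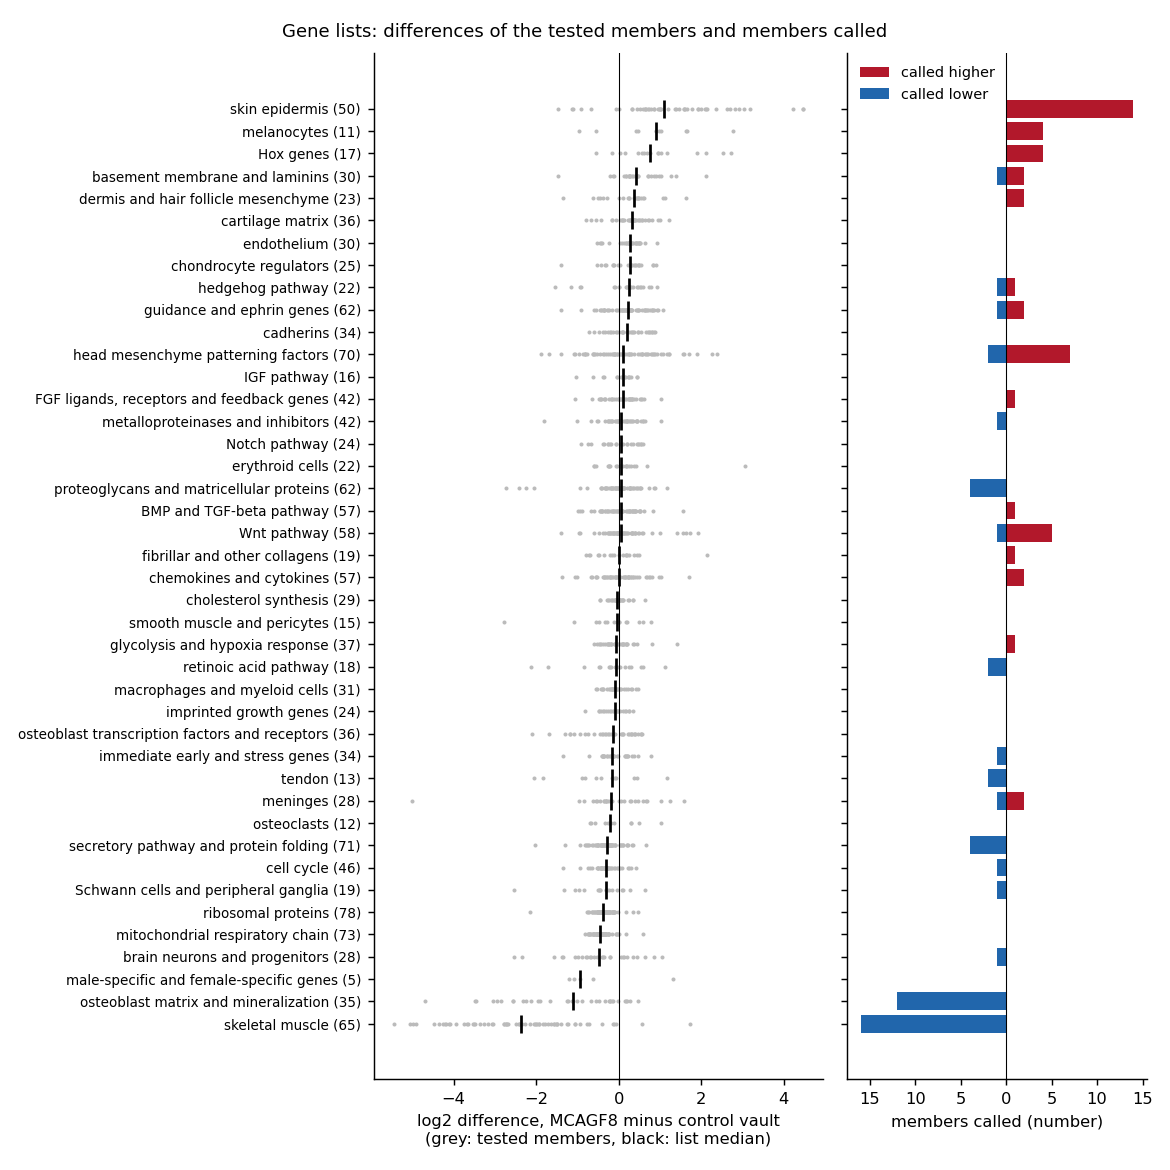
Left, log2 difference (MCAGF8 minus control vault) of each tested member (grey) and the median (black) of 42 gene lists, ordered by median, with the number tested in parentheses. Right, the number of members called higher (red) or lower (blue): skeletal muscle has 16 and bone matrix 12 called lower, and skin epidermis 14 called higher.

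**Figure D5:**
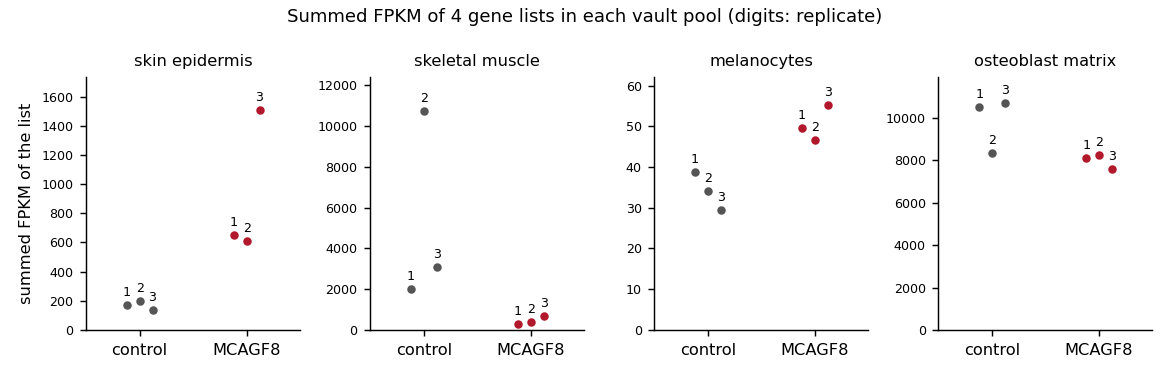
Summed FPKM (linear axes from 0) of 4 gene lists in each control pool (grey) and MCAGF8 pool (red), with the replicate number above each point. Epidermal sums are highest in MCAGF8 pool 3, muscle sums are highest in control pool 2, and the bone matrix sum of control pool 2 lies near those of the MCAGF8 pools.

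Some called genes lay close to each other. Within 100000 bases, 22 pairs of called genes were found, involving 36 genes, and the members of 20 pairs changed in the same direction. Pairs among the other tested genes were not counted, so these numbers have no background. Several pairs overlap or belong to gene clusters. Beside Pantr1 and Pou3f3, the risen pairs included Zic1 and Zic4, which overlap on opposite strands, the genes Krt15, Krt19 and Krt14 in the type I keratin cluster, and Hoxa11, Hoxa11os and Hoxa13. Slpi lay 298 bases from Matn4 and Col4a6 lay 1309 bases from Col4a5. On the fallen side, Dmp1, Ibsp, Mepe and Spp1 formed a run on chromosome 5, where genes of secreted phosphoproteins cluster, and Ibsp and Spp1 are named in the publication. Foxd3 lay 1316 bases from the noncoding gene Gm12688, which was at 0.409, 0.222 and 1.17 against 3.63, 3.94 and 3.63 FPKM (log2 difference -1.61 ± 0.25, adjusted p = 0.059). The 2 pairs in opposite directions were Lef1, higher, with Sgms2, lower, at a gap of 94629 bases, and Eps8l2, higher, with Sct, lower, at 59747 bases. Sct, the hormone secretin, stood at 0.353, 0.5002 and 0.567 against 4.25, 4.86 and 3.25 FPKM (log2 difference -1.79 ± 0.20, adjusted p = 0.0235).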

How the data were processed

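The authors mapped single-end reads of stranded mRNA libraries with gSNAP and deposited FPKM values estimated with Cufflinks, in a table of 43611 rows. The sources used here do not give tool versions, build or annotation. Read counts were not used here, which leaves the depth unknown and counting intervals out. Rows with a repeated Ensembl identifier were summed, and the 17 cells that hold the value 999999999 were treated as missing, which removed Myh10 and Peg10. None of the called genes lacked a library. GENCODE M21 gave symbols and positions.

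limma 3.58.1 in R 4.3.3 (lmFit, and eBayes with a trend) was fitted to log2(FPKM + 1) of the 6 vault libraries, two-sided, for genes with a mean of at least 0.5 FPKM. A gene absent or low in 1 group could pass this minimum through the other group, as Irx4, Irx6, Gabrp, Foxd3 and Bglap2 did among others. The filter thus partly set the calls of their lists. On data simulated with the means and spreads of the vault libraries, 200 genes were changed, as many up as down. By the median of 10 sets, 36.5% of genes changed by 1 on the log2 scale and 86.25% of those changed by 2 were called. False calls were 7 of 79 and 20 of 192.5. The noise was drawn independently per gene and library, so genes that shift together in a pool were not simulated, and these shares may not hold here. The publication counts as naming a gene in its text or in its figures. The comparison, the 42 gene lists and the members shown were chosen with earlier results of these data known. Genes named were the called genes at either end of the log2 differences, 15 at each end (mean of at least 5 FPKM in the higher group), the 10 most abundant called genes in each direction, up to 6 called members per list or the 2 with the smallest p where none was called, all not named in the publication, and the gene with the smallest p in each direction. Others were picked after their values were seen. The same-numbered pools of the 2 groups come from no shared source named in the labels. Alternatives changed the pseudocount, the minimum FPKM, the scaling, the libraries, the test and the threshold. A few genes that this rule picks are not reported here.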

Additional observations from a re-analysis of the deposited data

How the results depend on the processing

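The number of called genes, 257 (121 higher, 136 lower, 225 not named in the publication), moved by more than 1.5 times under these settings. Without a minimum FPKM there were 77 calls (44 higher, 33 lower, 67 not named there), and with a mean of at least 5 FPKM 147 (63, 84 and 118). Quantile normalization gave 465 (227, 238 and 422), rescaling to a sum of 1000000 gave 464 (314, 150 and 422) and removing the trend with length and GC gave 386, with 216 lower and 349 not named there. All 9 libraries in 1 fit gave 119 (45, 74 and 104). FPKM without the log gave 25 (15, 10 and 20), and the linear model without moderation 5 (4, 1 and 4), with 2294 genes at an unadjusted p below 0.05. An adjusted p below 0.05 left 90 (49, 41 and 74), and an unadjusted p below 0.05 alone gave 2386 (1056, 1330 and 2329). With 1 pool left out, calls ran from 6 (without MCAGF8 pool 1) to 384 (without control pool 2), calls higher from 3 to 107, calls lower from 3 to 277 and those not named there from 5 to 356. The causes of these shifts were not tested.

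The labels name no source shared by same-numbered pools. Deviations of same-numbered pools correlated at 0.371, -0.067 and -0.436, and those of differently numbered pools at -0.478 to 0.565. With 3 pools per group, such values cannot decide whether pools were paired. A fit with the replicate number as a block gave 86 calls (31 higher, 55 lower, 74 not named there), of which 78 were among the 257.

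Of 2414 values of the 122 named genes under alternatives, 1760 kept direction and side of the threshold, 619 were no longer past it, 34 newly passed it and 1 turned: the log2 difference of Ddx3y, which did not pass the test, ran from -2.30 to 0.118 with 1 pool left out, the latter without control pool 1. Of 840 list medians, 22 moved and 41 changed sign. Depth being unknown, low FPKM values cannot be given a counting error, and 3 pools per group limit every test.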
